A study of Rattus norvegicus with 47 samples.

Results

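The T cell receptor is the antigen receptor of T cells, and 9 genes of its complex and of the first steps of its signalling were followed in blood over the first day after stroke in the rat. The genes were Cd3d, Cd3e, Cd3g and Cd247, which code for the invariant chains of the receptor, Cd8a, which codes for a coreceptor chain, and Lck, Zap70, Lat and Plcg1, which code for the kinases, the adaptor and the phospholipase that act next. They were chosen by gene symbol, and where a symbol has several probe sets the rule takes the one with the highest mean over the time points. Each of the 9 symbols had 1 probe set, so the 9 genes are 9 of the 27596 probe sets of the table.

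Blood came from 8 male spontaneously hypertensive rats (SHR) of 16 weeks, the same animals at every time point except for 1 missing sample at 6 h. Stroke was induced in all of them by threading a coated filament through the internal carotid artery to block the middle cerebral artery (MCA). The filament was withdrawn under a renewed anaesthesia between the draws at 1 and 2 hours. Samples were taken at 0 h, before anaesthesia, and at 1, 2, 3, 6 and 24 hours post MCA occlusion, by tail vein for the first 5 draws and by heart puncture under an anaesthetic overdose for the last. RNA of the blood cell pellet was hybridised to 47 Affymetrix RaGene gene arrays, 8 at each time point and 7 at 6 h. Every rat was operated, so time after occlusion cannot be told apart from surgery, anaesthesia, warming and repeated bleeding, and at 24 h time cannot be told apart from the change of bleeding site either. This inbred strain with chronic high blood pressure was studied in males of 1 age.

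T cells recognise antigen through a pair of variable receptor chains that have almost no cytoplasmic part of their own. The signal is carried by CD3 delta, epsilon and gamma and the zeta chain, whose cytoplasmic tails hold paired tyrosines known as immunoreceptor tyrosine-based activation motifs. LCK, brought in by the CD4 or CD8 coreceptor, phosphorylates these tyrosines, ZAP70 docks on them and phosphorylates the scaffold LAT, and phospholipase C gamma 1 bound to LAT then makes the messengers that release calcium and activate RAS and protein kinase C. In blood most of these genes are read mainly in circulating T cells, and some of them, such as Lck, Zap70 and Cd247, also in natural killer (NK) cells. Plcg1 is an exception and is read in many cell types. A cytotoxic T cell subset carries CD8, and in the rat NK cells can carry the CD8 alpha chain as well.

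Values are log2 signals on the scale of robust multi-array averaging (RMA), given as the authors' mean ± the authors' SD over the 8 arrays of a time point, or 7 at 6 h. A change is the mean at 1 time point minus the mean at another, so a fall of 1 leaves 50% of the signal. Changes were tested with limma's moderated test built from these means, SDs and array numbers, and p-values were adjusted by Benjamini-Hochberg over all 27596 probe sets, with a threshold of 0.05. Single arrays were not used, so overlap between arrays was read from the mean and SD alone. The mean signal of the 9 genes at 0 h lay between 7.83 and 11.15, all 9 above the median of 6.61 over all probe sets. Their SDs ranged from 0.08 to 0.48, against medians of 0.14 to 0.16 over all probe sets.

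All 9 genes had a lower mean at 2, 3, 6 and 24 h than at 0 h, and 8 of 9 also at 1 h. The median change of the 9 genes was -0.35, -0.72, -0.86 and -0.97 after 1, 2, 3 and 6 h and -0.67 after 24 h, while the median over all probe sets lay between 0.04 and 0.07. The signal left at 6 h ranged from 41.1% of that at 0 h for Cd8a to 80% for Zap70, and at 24 h from 50.7% for Cd3d to 92.2% for Zap70. All 9 changed over the 6 time points by the moderated F-test of limma, a test that 55.5% of all probe sets also passed. With quantile normalization of the means, or with a Bonferroni adjustment, 8 of 9 passed it. The number of genes that were lower than at 0 h was 7 of 9 after 1 h, 9 of 9 after 2, 3 and 6 h, and 7 of 9 after 24 h. After quantile normalization of the means it was 5 after 1 h, 8 after 2 h and 7 after 3 h, and with a Bonferroni adjustment it was 0 after 1 h, 7 after 2 and 3 h, 8 after 6 h and 5 after 24 h. Of all probe sets, 15.4% were lower after 1 h, 18.6% after 2 h, 19.2% after 3 h, 19.3% after 6 h and 13.9% after 24 h. These shares are for the moderated test with the Benjamini-Hochberg adjustment. With a Bonferroni adjustment 920, 1859, 1769, 1807 and 667 of the 27596 probe sets were lower at these time points. The shares after quantile normalization of the means are not given here. In whole blood, fewer T cells among the cells drawn and less of these RNAs per T cell cannot be told apart. Neither can be told apart from changes in other cells that hold some of these RNAs, such as NK cells.

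**Figure D1:**
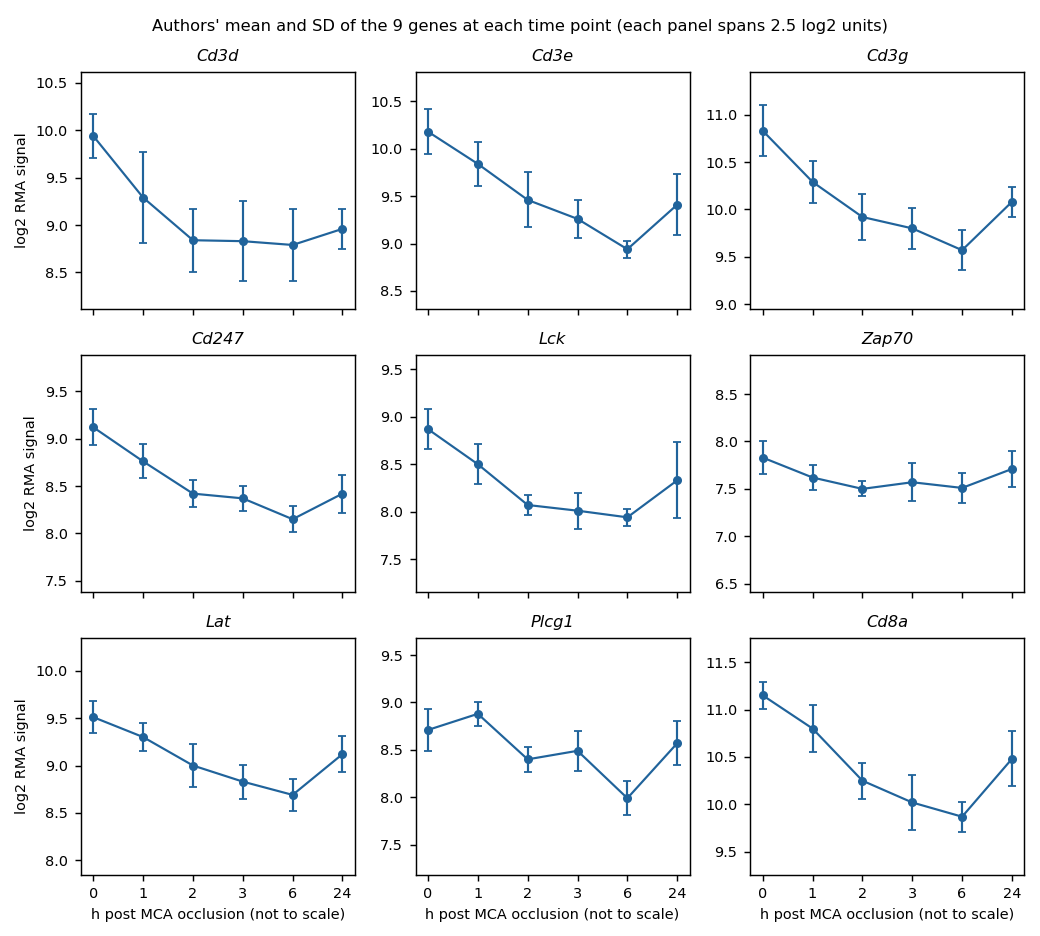
The authors' mean log2 RMA signal (points) and SD (bars) of each of the 9 genes at 0, 1, 2, 3, 6 and 24 h post MCA occlusion, with 8 arrays per point and 7 at 6 h; the time points are evenly spaced and each panel spans the same height. The lowest mean was at 6 h in 8 of the 9 genes and at 2 h in Zap70, and the highest was at 0 h in all but Plcg1, where it was at 1 h.

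The genes of all 3 CD3 chains were lower at each of the 5 later time points, though at 1 h Cd3e did not pass with quantile normalization of the means (limma's adjusted p = 0.0512) and none of the 3 with a Bonferroni adjustment. Cd3d (probe set 10909583, chr8:47900377-47905113, plus strand) codes for the delta chain, which pairs with epsilon. Its mean signal was 9.94 ± 0.23 before occlusion, 9.29 ± 0.48, 8.84 ± 0.33, 8.83 ± 0.42 and 8.79 ± 0.38 after 1, 2, 3 and 6 h, and 8.96 ± 0.21 after 24 h. Most of its fall was thus in place by 2 h, with a change of -1.09 (95% interval -1.43 to -0.75, limma's adjusted p = 7.05e-07), and little was regained by 24 h, when the change was still -0.98 (adjusted p = 1.76e-05). Cd3d had the widest SDs of the 9 genes at 1, 2, 3 and 6 h.

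Cd3e (probe set 10916955, chr8:47916184-47926678, minus strand) codes for the epsilon chain, which is present in both CD3 pairs of a receptor. It was at 10.18 ± 0.24 at 0 h, then 9.84 ± 0.23, 9.46 ± 0.29, 9.26 ± 0.20 and 8.94 ± 0.09 over the draws from 1 to 6 h, and 9.41 ± 0.32 on the next day. Its mean, like that of Cd3d, went down at each draw up to 6 h, to a change of -1.24 (95% interval -1.48 to -1.0, limma's adjusted p = 5.93e-12). The third chain, CD3 gamma, is coded by Cd3g (probe set 10916946, chr8:47892430-47898781, minus strand). Its signal was 10.83 ± 0.27 before surgery, 10.29 ± 0.22 and 9.92 ± 0.24 at the first 2 draws after it, 9.80 ± 0.22 and 9.57 ± 0.21 at 3 and 6 h, and 10.08 ± 0.16 a day later. It had changed by -1.26 at 6 h (95% interval -1.48 to -1.03, adjusted p = 3.19e-13 by limma) and by -0.75 at 24 h.

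Positions are on rn5, as the deposited annotation gives them, and each is the whole span of the probe set's transcript. Cd3g, Cd3d and Cd3e lie side by side on chromosome 8 within 34249 bases, with 1595 bases between Cd3g and Cd3d and 11070 between Cd3d and Cd3e. Cd3g and Cd3d face away from each other on opposite strands across the short gap. The 3 neighbours had changes between -1.14 and -1.26 at 6 h and between -0.75 and -0.98 at 24 h.

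Cd247 (probe set 10765339, chr13:88876069-88956956, plus strand) codes for the zeta chain, the receptor subunit with the most activation motifs. Its mean signal was 9.12 ± 0.19 before occlusion, 8.76 ± 0.18, 8.42 ± 0.14, 8.37 ± 0.13 and 8.15 ± 0.14 after 1, 2, 3 and 6 h, and 8.42 ± 0.20 after 24 h. The change of -0.97 at 6 h (95% interval -1.14 to -0.80, limma's adjusted p = 2.39e-13) was 4.92 times the highest of its 6 SDs, the largest such ratio among the 9 genes. The coreceptor chain gene Cd8a (probe set 10856274, chr4:164017633-164021870, plus strand) was at 11.15 ± 0.14 at 0 h, then 10.80 ± 0.25, 10.25 ± 0.19, 10.02 ± 0.29 and 9.87 ± 0.16 over the draws from 1 to 6 h, and 10.48 ± 0.29 on the next day. It had the largest fall of the 9 genes, to a change of -1.28 at 6 h (95% interval -1.51 to -1.05, adjusted p = 5.79e-13 by limma).

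Of the 4 genes that act downstream of the receptor chains, Lck had the course nearest to that of the CD3 genes by the root mean square difference of its changes. LCK is the Src-family kinase that starts the cascade. Lck (probe set 10880033, chr5:151480214-151491668, minus strand) was at 8.87 ± 0.21 before surgery, 8.50 ± 0.21 and 8.07 ± 0.11 at the first 2 draws after it, 8.01 ± 0.19 and 7.94 ± 0.09 at 3 and 6 h, and 8.33 ± 0.40 a day later. Its change was -0.93 at 6 h (95% interval -1.16 to -0.70, limma's adjusted p = 3.21e-09) and -0.54 at 24 h, when its arrays were the most spread. Lat (probe set 10725645, chr1:204747720-204752745, minus strand) codes for the membrane scaffold on which the signalling complex is built. Its mean was 9.51 ± 0.17 before occlusion, 9.30 ± 0.15, 9.0 ± 0.23, 8.83 ± 0.18 and 8.69 ± 0.17 after 1, 2, 3 and 6 h, and 9.12 ± 0.19 after 24 h. The change at 1 h, -0.22, did not pass the test (adjusted p = 0.0532), whereas that at 6 h was -0.83 (95% interval -1.01 to -0.64, limma's adjusted p = 4.39e-10).

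Zap70 and Plcg1 had the smallest changes at 2 and 3 h and were the only genes not lower at 24 h by the test. Zap70 (probe set 10922579, chr9:42980050-43002015, plus strand), the gene of the Syk-family kinase that docks on the phosphorylated chains, was at 7.83 ± 0.17 at 0 h, then 7.62 ± 0.13, 7.50 ± 0.08, 7.57 ± 0.20 and 7.51 ± 0.16 over the draws from 1 to 6 h, and 7.71 ± 0.19 on the next day. Its largest change, -0.32, was reached at 2 h (95% interval -0.48 to -0.17, limma's adjusted p = 0.000859) and was still -0.32 at 6 h, and it was 1.64 times the highest SD of the gene, the smallest such ratio of the 9. None of the calls of Zap70 against 0 h held with a Bonferroni adjustment, and those at 1 and 3 h did not hold with quantile normalization of the means. At 24 h its change of -0.12 did not pass the test (95% interval -0.28 to 0.04, adjusted p = 0.262). Plcg1 (probe set 10841850, chr3:162957125-163001127, plus strand), the gene of the phospholipase, is read in many cell types besides T cells. Its means were 8.71 ± 0.22 before surgery, 8.88 ± 0.13 and 8.40 ± 0.13 at the first 2 draws after it, 8.49 ± 0.21 and 7.99 ± 0.18 at 3 and 6 h, and 8.57 ± 0.23 a day later. It was the only 1 of the 9 with a mean above that at 0 h at any time, 0.17 at 1 h, which did not pass the test (95% interval -0.01 to 0.36, adjusted p = 0.131) but did after quantile normalization of the means (0.26, limma's adjusted p = 0.0283). The same setting took away its calls at 2 h (-0.21, limma's adjusted p = 0.0728) and 3 h (-0.12, adjusted p = 0.318). It then had 2 falls, the first between 1 and 2 h and the second between 3 and 6 h. The change from 0 h was -0.72 at 6 h (95% interval -0.91 to -0.53, limma's adjusted p = 1.77e-08) and -0.14 at 24 h (adjusted p = 0.256).

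**Figure D2:**
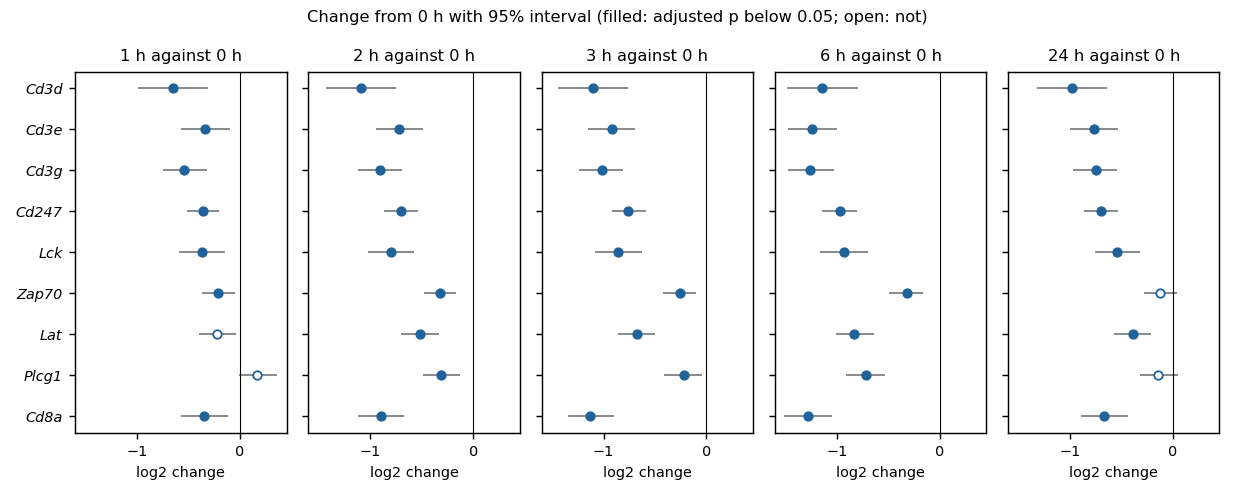
Change of each gene from 0 h on the log2 scale (points) with its 95% interval (lines) at 1, 2, 3, 6 and 24 h post MCA occlusion; filled points passed an adjusted p of 0.05 by the moderated test and open points did not. At 6 h all 9 points are filled and lie between -1.28 and -0.32, and at 24 h those of Zap70 and Plcg1 are open.

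The means minus 1 SD at 0 h lay above the means plus 1 SD of the later time point in 1 of 9 genes after 1 h, 8 after 2 h, 7 after 3 h, 8 after 6 h and 6 after 24 h. The same held for 8.64, 12.5, 11.3, 11.9 and 7.26% of all probe sets. In 6 of 9 genes (Cd3d, Cd3g, Cd247, Lck, Lat and Cd8a) the time points had the same order of means, highest at 0 h and then 1, 24, 2, 3 and 6 h. In Cd3e the places of 24 and 2 h were exchanged. Neighbours in this order often did not differ beyond their spread. From 1 to 2 h, 7 of 9 genes went lower by limma's moderated test (all but Cd3d and Zap70), a step in which 4.11% of all probe sets went lower. With the variance of the compared groups only, 4 of 9 passed, without Cd3e, Cd3g and Lat, and with a Bonferroni adjustment 0 of 9. The largest of these steps were -0.55 for Cd8a (95% interval -0.77 to -0.32, limma's adjusted p = 0.000646) and -0.48 for Plcg1 (-0.67 to -0.30, adjusted p = 0.000242). Cd3d went down by a like amount, -0.44, with a wider interval of -0.78 to -0.10 (adjusted p = 0.0942). From 2 to 3 h, 0 of 9 passed the moderated test (1.62% of all probe sets were lower), and 1 gene, Cd8a, had an unadjusted p below 0.05. From 3 to 6 h Plcg1 alone went lower, by -0.50 (limma's adjusted p = 0.000541), as did 2.44% of all probe sets, a call lost with a Bonferroni adjustment (adjusted p = 0.0849).

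By 24 h all 9 means lay between those of 6 and 0 h. From 6 to 24 h, 7 of 9 genes went higher by limma's moderated test (all but Cd3d and Zap70), against 10.2% of all probe sets. It was 5 of 9 with the variance of the compared groups only, without Cd247 and Lck, and 1 of 9 with a Bonferroni adjustment. The rise ranged from 0.16 for Cd3d to 0.62 for Cd8a, with a median of 0.43. For Cd8a the 95% interval of this rise was 0.39 to 0.85 (limma's adjusted p = 5.49e-05) and for Plcg1, which rose by 0.59, it was 0.40 to 0.78. For Cd3d it was -0.19 to 0.51, which holds 0 (adjusted p = 0.595). The receptor chain genes Cd3e (-0.77, limma's adjusted p = 1.89e-06), Cd3g (-0.75, adjusted p = 5.81e-07) and Cd247 (-0.70, adjusted p = 9.42e-09) were still lower at 24 h than at 0 h, as were Cd8a (-0.67, adjusted p = 1.05e-05), Lck (-0.54, adjusted p = 0.000189) and Lat (-0.39, adjusted p = 0.000815). With a Bonferroni adjustment Lck (adjusted p = 0.301) and Lat did not pass at 24 h, which left 5 of 9. The change left at 24 h was 58% of that at 6 h in the median gene, with 19% for Plcg1 at one end and 85.7% for Cd3d at the other. Set against 2 h, 0 of 9 genes were higher at 24 h by the moderated test, a call made for 8.7% of all probe sets, and 3 (Lck, Zap70 and Cd8a) had an unadjusted p below 0.05. Set against 1 h, Cd3e, Cd247 and Plcg1 were lower at 24 h, which makes 3 of 9, with 3.25% over all probe sets, and 0 of 9 passed with the variance of the compared groups only or with a Bonferroni adjustment. These last 2 comparisons were added after the values had been seen.

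Since most members moved together, the promoters were searched for letters that blood cell transcription factors are known to read. RefSeq promoters on the GRCr8 build, from 250 bases before to 50 after each start, were at hand for all 9 genes, with 10 windows in all because Lck has 2. The ETS-type word CAGGAAGT was found on either strand in 4 of the 10 windows, those of Cd3e and Cd247 and both of Lck, and in 3.05% of all 33469 promoters. It starts 18 bases before the start of Cd3e, 93 and 8 bases before that of Cd247, and 30 and 78 bases before the starts of Lck. These windows are shown because they are the ones with the word. They are in lower case from 5′ to 3′ on the strand of the gene, with the word or its reverse complement in capitals. That of Plcg1, whose mean was highest at 1 h, is shown as an example without it. The windows of Cd3d, Cd3g, Cd8a, Lat and Zap70 lacked the word too. Of the 9 genes, Cd8a (-1.28) and Cd3g (-1.26) had the largest falls at 6 h. A link between the word and the course of a gene was not tested.
Cd3e, chr8:54211721-54212020, minus strand: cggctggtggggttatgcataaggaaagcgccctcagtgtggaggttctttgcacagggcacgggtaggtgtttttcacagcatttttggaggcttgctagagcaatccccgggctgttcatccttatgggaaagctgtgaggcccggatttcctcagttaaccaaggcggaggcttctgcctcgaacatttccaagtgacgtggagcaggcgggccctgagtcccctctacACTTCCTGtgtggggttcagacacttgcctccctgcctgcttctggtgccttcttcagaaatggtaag
Cd247, chr13:80576019-80576318, plus strand: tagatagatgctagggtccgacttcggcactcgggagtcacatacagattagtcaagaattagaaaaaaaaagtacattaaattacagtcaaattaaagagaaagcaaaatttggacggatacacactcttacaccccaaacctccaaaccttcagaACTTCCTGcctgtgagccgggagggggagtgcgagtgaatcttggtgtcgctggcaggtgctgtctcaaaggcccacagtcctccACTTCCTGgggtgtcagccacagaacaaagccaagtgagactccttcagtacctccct
Lck, first window, chr5:147201218-147201517, minus strand: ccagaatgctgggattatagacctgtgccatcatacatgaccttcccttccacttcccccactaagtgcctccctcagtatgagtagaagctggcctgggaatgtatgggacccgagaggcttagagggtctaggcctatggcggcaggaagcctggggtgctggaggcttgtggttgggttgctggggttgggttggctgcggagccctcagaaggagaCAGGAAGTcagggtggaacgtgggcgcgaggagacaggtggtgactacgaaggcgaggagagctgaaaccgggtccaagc
Lck, second window, chr5:147183601-147183900, minus strand: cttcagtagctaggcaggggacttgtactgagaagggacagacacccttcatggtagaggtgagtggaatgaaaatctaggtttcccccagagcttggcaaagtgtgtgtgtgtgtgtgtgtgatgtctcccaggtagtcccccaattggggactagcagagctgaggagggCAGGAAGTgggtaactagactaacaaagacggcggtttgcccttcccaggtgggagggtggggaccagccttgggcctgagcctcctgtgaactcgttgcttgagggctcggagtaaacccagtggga
Plcg1, chr3:169805049-169805348, plus strand: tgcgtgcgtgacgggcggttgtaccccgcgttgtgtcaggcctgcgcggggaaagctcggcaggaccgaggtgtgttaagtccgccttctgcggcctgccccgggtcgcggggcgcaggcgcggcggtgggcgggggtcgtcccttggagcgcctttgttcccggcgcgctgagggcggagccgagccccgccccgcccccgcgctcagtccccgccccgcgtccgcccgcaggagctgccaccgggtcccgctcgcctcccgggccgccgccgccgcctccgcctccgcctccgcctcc

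The Plcg1 window had a GC content of 78.7%, above that of 98.7% of all promoters, whose median was 51.7%. The other member windows had between 48 and 63.7%. The second ETS-type word, CCGGAAGT, was in 0 of the 10 windows and in 3.81% of all promoters. The RUNX-type words TGTGGT and TGCGGT were in 2 windows (Lat and Lck) and 0, against 17.3 and 6.39% of all promoters, and the E box CANNTG was in 7, against 72.1%. The word TATAAA was in 0 of 10 windows and in 14.2% of all promoters. All words were searched on both strands, and no match of CAGGAAGT overlapped a match of another word. A match is a string of letters in the window, and binding was not measured.

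Genes of other surface partners of the receptor were lower as well. The symbols looked up for the constant regions of the receptor chains were not matched in the table, which left 7 of 14 listed surface genes. All 7 were lower at 6 h, with a median change of -1.14. Cd4, the coreceptor of helper T cells, had the largest fall, with changes of -0.52, -1.02, -1.30 and -1.55 over the draws from 1 to 6 h and -0.62 on the next day. Which blood cells the Cd4 RNA came from was not tested. Cd28, the costimulatory receptor, followed with -1.45 at 6 h and -0.92 at 24 h. Cd8b, which codes for the chain that pairs with CD8 alpha and lies 37197 bases from Cd8a on chromosome 4, changed by -1.39 at 6 h. None of the 7 rose. Ptprc, the gene of CD45, a phosphatase found on all leukocytes, changed least, by -0.14 at 6 h.

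Among 21 further kinases and adaptors near the receptor, 13 were lower and 5 higher at 6 h by limma's moderated test, with a median change of -0.34. Of all probe sets, 19.3% were lower and 22.5% higher at 6 h, which are the shares to set beside the counts at 6 h of the lists below. Rasgrp1, which activates RAS in T cells, changed by -1.34, and Themis, an adaptor of developing and mature T cells, by -1.31. The 5 that were higher were Nck1, a cytoskeletal adaptor (0.68), Vav1, an exchange factor of all blood cell lineages (0.41), Bcl10 (0.41), Sos1 (0.39) and Grb2 (0.26), genes read well beyond T cells. Sh2d2a, a T cell adaptor, was higher at 1 h (0.49) and 2 h (0.30), and Prkcq, a protein kinase C isoform, was lower at 6 h (-0.20) and higher at 24 h (0.17). Of 16 inhibitors of the signal found among 17 listed, 9 were lower and 1 higher at 6 h, with a median of -0.36. Lax1, an inhibitory adaptor of T and B cells, had its largest change at 2 h (-1.47), Dgka, a lipid kinase that removes diacylglycerol, changed by -1.0 at 6 h, and Ubash3b rose by 0.47 at 1 h.

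In the calcium branch, 10 of 11 listed genes were found, of which 6 were lower and 1 higher at 6 h, with a median of -0.30. The shares over all probe sets were 19.3 and 22.5%. Itpr1, a calcium release channel, reached -1.16 at 2 h, Nfatc3, a calcium-dependent transcription factor, changed by -1.01 at 6 h, and Ppp3ca, a calcineurin subunit, was higher at 6 h by 0.35. Of 10 markers of naive T cells, 8 were lower and 2 higher at 6 h, with a median of -0.82. The homing receptor gene Ccr7 changed by -1.29 and the transcription factor gene Lef1 by -1.18.

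Several members have a close relative that does the same work in B cells, NK cells or myeloid cells. Syk, the relative of Zap70, rose by 0.36 at 2 h, by 0.35 at 6 h and by 0.23 at 24 h, all 3 past the moderated test, while Zap70 was lower at 2 and 6 h. Lyn, a Src-family kinase like Lck, was at -0.08 at 1 h, which did not pass, and rose by 0.45 at 6 h. Fcer1g, which like Cd247 codes for a chain with an activation motif, kept changes between -0.02 and 0.07 with none past the test. Plcg2, which in B cells takes the part of Plcg1, was lower at all 5 later time points, by -0.48 at 1 h and by -0.65 at 3 h. Lat2, a relative of Lat in B and myeloid cells, changed by -0.34 at 1 h and by -0.35 at 6 h. Over 11 genes listed as counterparts in other leukocytes, 4 were lower and 5 higher at 6 h, with a median of 0.04. They ranged from -1.49 for Blnk, the B cell linker, which had reached -1.77 at 2 h, to 0.48 for Tyrobp, an activating adaptor of NK and myeloid cells. Cd8b, the relative of Cd8a, is a T cell gene and not among these 11, and it changed by -0.68 at 1 h. The differences between a member and its relative were not tested.

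**Figure D3:**
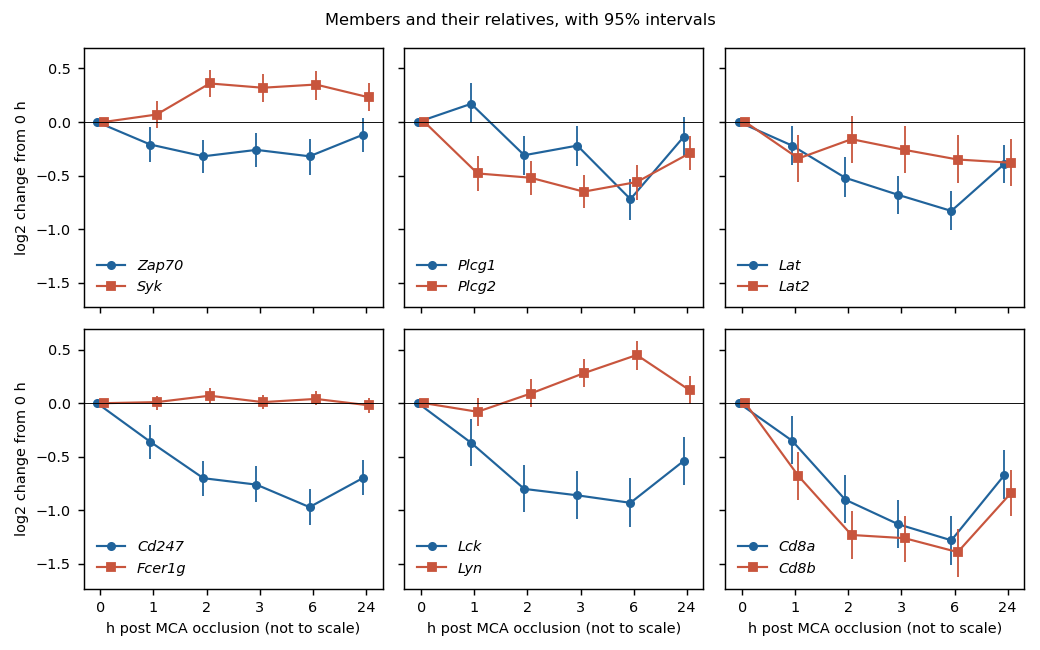
Change from 0 h on the log2 scale with 95% intervals for 6 members (circles) and a relative of each (squares) at evenly spaced time points post MCA occlusion. The squares of Syk and Lyn lie above 0 at 6 h and those of Fcer1g at about 0, while those of Cd8b follow the circles of Cd8a.

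Markers of other blood cells moved at the same draws. Over all probe sets, 19.3% were lower and 22.5% higher at 6 h, and 13.9% were lower at 24 h. Of 12 B cell markers, 11 were lower at 6 h, with a median change of -2.0 after 2 h, -1.62 after 6 h and -0.53 after 24 h, and 9 of 12 NK cell markers were lower at 6 h and at 24 h, with medians of -0.56 and -0.64, while 1, Ncr1, was higher at 6 h (0.34). Of 11 neutrophil markers, 9 were higher and 1 lower at 6 h, with a median of 1.29. Summed over each list on the linear scale, the signal at 1, 2, 3, 6 and 24 h was 77.3, 57.9, 53.3, 46.4 and 63.7% of that at 0 h for the 9 genes, between 27.4 and 68.7% for the B cell markers, between 57.6 and 97.3% for the NK cell markers, and between 153 and 253% for the neutrophil markers. The lists around the receptor kept more of their summed signal at 6 h than the 9 genes. It was 70.6% for the surface partners, 82.1% for the further kinases and adaptors and 88.2% for the naive T cell markers. Monocyte markers had a median of 0.27 at 6 h with 3 of 9 lower and 4 higher, and the medians of the platelet, erythroid and cardiac muscle lists at 6 h were 0.07, -0.11 and 0.12. Only 1 of 7 platelet markers was higher at 6 h, Selp (1.40). Cardiac muscle genes had signals between 5.30 and 7.10 at 0 h, and their median was 0.10 at 24 h, when blood was taken from the heart. At 24 h the medians were 0.30 for platelet and 0.25 for erythroid markers. At that draw 4 of 7 platelet, 5 of 9 erythroid and 3 of 9 cardiac muscle markers were higher and 0 lower. The share of all probe sets that were higher at 24 h was 17.4%. RMA scales every array to 1 distribution of signal, so these are relative amounts, and the part of cell makeup in the changes of the 9 genes was not tested.

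**Figure D4:**
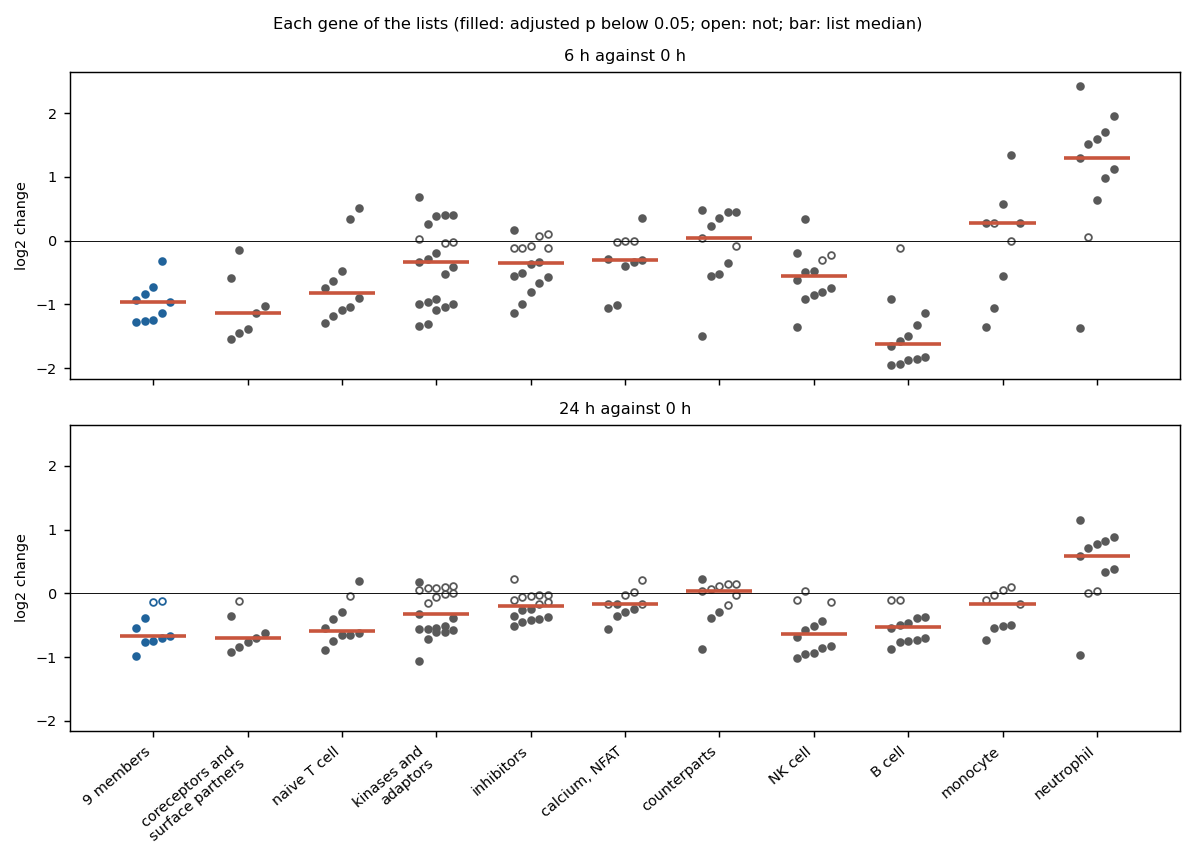
Each point is the log2 change of 1 gene from 0 h at 6 h (top) and 24 h (bottom) in the 9 members and 10 gene lists; filled points passed an adjusted p of 0.05, open points did not, and the bar is the median of the list. The members, their surface partners and the naive T cell markers lie mostly below 0, the B cell markers lower still at 6 h, and the neutrophil markers above 0.

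The probe sets with a course most like that of the CD3 genes were ranked by the root mean square difference of the 5 changes from 0 h to the mean changes of Cd3d, Cd3e and Cd3g, which were -0.51, -0.91, -1.01, -1.21 and -0.83. Outside the 9 members, the nearest of those with 1 symbol and an adjusted F-test p below 0.05 was Ighg, an immunoglobulin heavy chain gene, at 0.0557. Those that came next included Cadm1, Lef1, Cd86, Hdac9, Pparg, Ccr7, Ms4a6c and Akr1b1, the last of these at 0.101. Lef1 and Ccr7 are T cell genes by the list above, while Ighg belongs to the B lineage and Cd86 to antigen-presenting cells. Within the members the same measure was 0.119 for Cd8a, 0.203 for Cd247, 0.21 for Lck, 0.372 for Lat, 0.659 for Plcg1 and 0.678 for Zap70. Each course is 5 differences that share the 0 h mean.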

How the data were processed

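The deposited table holds 27596 probe sets of Affymetrix RaGene 1.0 ST arrays with annotation na36 on rn5, 6190 of them without a symbol. Per the file headers, the authors made gene-level RMA values (background corrected, quantile normalized, on the log2 scale) and averaged the arrays of each time point. The deposited log2 means and the authors' SDs of the 6 time points, over 8 arrays each and 7 at 6 h, are the values used here. The submitters' processing notes name limma, and the program that made the table is not given in the sources used here. Its columns of fold changes, p-values and FDR values, and its F-tests, are the authors' own comparisons and were not used. The 47 columns of single arrays carry running numbers from 1 to 48 without 17, which no label gives to a rat and time point. They were not assigned by their order and were not used, so the linear model over single arrays, planned as the first choice, was replaced by the same model from means, SDs and array numbers.

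The pooled within-group variance (41 residual degrees of freedom) was moderated with squeezeVar of limma 3.58.1 in R 4.3.3 (prior degrees of freedom 5.707), and p-values were adjusted by Benjamini-Hochberg over all probe sets. The method was run on simulated data, and the outcome is not reported here. The method takes arrays as independent although each rat gave several of them, and the number of arrays limits its precision. RNA was worked up in batches between which the samples had been randomised, and the batch of a sample is not given in the sources used here. Summaries, sequence searches and figures were made in Python 3.11.15 with pandas 2.3.3, numpy 2.4.6 and matplotlib 3.10.9.

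The members and gene lists were chosen with earlier results of these data known. Named were all members, their relatives, the 10 nearest courses and, per list around the receptor, the largest rise, the largest fall and the next largest change, with every surface gene, kinase or adaptor called against the majority of its list. Other genes named are markers at the ends of a range. The results of 2 genes that this rule would name are not reported here. Alternatives were an ordinary test, an intensity trend with a robust prior, centred time points, quantile normalization of the means, a filter on the 25% dimmest probe sets, variance from the compared groups only, a Bonferroni adjustment and, for lists, the median over all probe sets of a symbol. T cell receptor variable segments were added after the table had been seen.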

Additional observations from a re-analysis of the deposited data

How the results depend on the processing

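Over the 9 genes and 11 tests each (99 results), 644 of 693 values under 7 alternatives kept their direction and their side of the threshold, 45 lost the call and 3 gained it. The ordinary test and the intensity trend with a robust prior changed none of the 99. With a Bonferroni adjustment 31 calls were lost, so that 0 of 9 genes were lower at 1 h, 0 of 9 between 1 and 2 h and 0 of 9 between 3 and 6 h, 1 of 9 was higher at 24 than at 6 h, and 0 of 9 were lower at 24 than at 1 h; over all probe sets the F-test then called 4242 in place of 15302. With the variance of the compared groups only, 4 genes in place of 7 were lower at 2 than at 1 h and 0 in place of 3 at 24 than at 1 h. Quantile normalization of the means removed the calls of Cd3e (-0.29) and Zap70 (-0.15) at 1 h, Plcg1 at 2 h (-0.21) and 3 h (-0.12) and Zap70 at 3 h (-0.17), and made Plcg1 higher at 1 h (0.26, limma's adjusted p = 0.0283). Lat at 1 h became lower with centred time points (adjusted p = 0.0201) or without the dimmest probe sets (adjusted p = 0.0456). Centring also turned the sign of Cd247 at 24 against 2 h, from 0.00 to -0.01, neither of which passed the test. Apart from what the tests' own construction shows, such as the stricter adjustment, the cause was not tested.

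No paired analysis was possible because the columns used hold 1 mean per time point and name no rat. It would need the single-array columns, which no label ties to a rat and which were left out, and so would leaving out each rat in turn. The alternative with another probe set of a symbol could not be applied to the 9 genes, which have 1 probe set each. How far single arrays were above background could not be read from means.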

Other observations

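The variable segments of the receptor, read by 22 probe sets whose description names a T cell receptor chain, gave another reading of T cell RNA. At 6 h 17 of 22 were lower and 1 higher than at 0 h by limma's moderated test, with a median change of -0.48, and at 24 h 14 of 22 were lower, with a median of -0.27. Over all probe sets, 19.3% were lower and 22.5% higher at 6 h, and 13.9% were lower at 24 h. Their signals at 0 h lay between 5.18 and 9.83. Several of these probe sets share symbols and may share probes, so they are not independent, and 2 of them had the same values at every time point to the digits given.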
